A study of Mus musculus with 11 samples.

Results

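The genes described here are 50 genes of mitosis and cytokinesis, the stages of the cell cycle in which a cell separates its copied chromosomes and divides. They were chosen by name for their role in division, with earlier results of these data known. Counts of calls below therefore describe the list and do not test it. Gene IDs of the count table were matched to the symbols in the GENCODE M21 annotation of the mouse genome (GRCm38). All 50 were found among 56748 rows. Their counts were compared between 6 Atg5-deficient and 5 wild-type RNA-seq libraries of mouse liver CD4 T cells. All 50 passed the filter on low counts, and 48 of them reached its cutoff in all 5 wild-type libraries (Cdc25c and Psrc1 in 4).

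The Atg5-deficient libraries came from mice labelled ATG5TLymph-/-, in whose T lymphocytes the gene for Atg5, part of the machinery that builds autophagosomes, is deleted. The wild-type libraries came from mice that carry the floxed gene without the deletion (ATG5fl/fl in the design text). Both groups had received carbon tetrachloride (CCl4), a toxin that injures hepatocytes and leads to liver fibrosis, for 5 weeks. The labels and design text do not give the age of the mice, the driver of the Cre recombinase or the deleted part of Atg5. The series describes cells sorted by flow cytometry, whereas the labels' protocol describes RNA from sections of fixed, paraffin-embedded blocks, and the sources do not settle which was used. Nor do they state that each library is from its own mouse; p-values here reflect only how these samples vary, which may be technical.

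A dividing cell makes most of its mitotic proteins anew in each cycle, and their transcripts accumulate late in it, after DNA replication has begun. Cyclin-dependent kinase 1 with its cyclins starts mitosis, the spindle attaches to chromosomes through the kinetochores, a checkpoint holds back separation until all chromosomes are attached, and the central spindle then places the furrow that cuts the cell apart. A resting T cell transcribes these genes little, and a T cell that divides after activation transcribes them strongly.

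Libraries held 30699408 to 47564440 counted reads, so that 3 counts in a library (the smallest number that tells a gene from absent) came to 0.0631 to 0.0977 CPM (counts scaled to the size of the library). Within a group, chi-square per degree of freedom between pairs of libraries ran from 14.1 to 188, where sampling noise alone gives about 1. Pairs among wild-type replicates 1, 4 and 5 gave 14.1 to 21.1, and their pairs with wild-type replicates 2 or 3 gave 109 to 188. Wild-type replicates 2 and 3 also had the smallest shares of reads on annotated genes, 90.9% and 89.3%, where all other libraries had 95.0% or more. Atg5 itself stood at 19.2 ± 2.51 CPM over the 6 Atg5-deficient and 16.9 ± 3.59 CPM over the 5 wild-type libraries (mean ± SD), with an edgeR adjusted p of 0.488. Since the deleted part is not given, a count over the whole gene does not check the labels. Markers of CD4 T cells summed to 3214 to 4792 CPM in Atg5-deficient and 3226 to 3670 CPM in wild-type libraries, all 10 of them detected. These sums were not alike between groups. Atg5-deficient replicates 1, 2, 4, 5 and 6 lay above every wild-type library (3759 CPM or more), and replicate 3 lay below every one. Among the 10 markers edgeR called only Cd5 (log2 fold change 0.40, adjusted p = 0.0214). Those of hepatocytes summed to 58.7 to 1041 CPM in Atg5-deficient and 45.2 to 598 CPM in wild-type libraries, and those of CD8 T cells to 4.10 to 6.33 CPM in Atg5-deficient and 4.48 to 6.55 CPM in wild-type libraries. Fewer cells of a type and less RNA per cell cannot be told apart in such bulk samples.

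Most genes of mitosis and cytokinesis rose in Atg5-deficient libraries. Of the 50, 41 were called higher (edgeR's quasi-likelihood test, Benjamini-Hochberg adjusted p under 0.05 over 17987 genes) and 0 lower, where 4.43% of all tested genes were called higher and 2.41% lower. Of all calls, 64.7% were higher, and 46.0% with upper-quartile scaling, under which 40 of the 50 were called higher (3.25% of all genes). At an unadjusted p under 0.05, 47 were higher and 0 lower, against 12.7% and 10.6% of all genes. DESeq2 called 45 higher (7.75% of all genes) and limma-voom 47 (10.8%), and neither called any of them lower. The median log2 fold change over the 50 was 1.22, against -0.00 over all tested genes, and the middle of the set lay between 1.10 and 1.41 (quartiles). A positive value was fitted for 49 of the 50, where 49.7% of all genes had one, and 40 lay above 1, a doubling. The exception in sign was Smc4, a subunit of condensin, at -0.19. Groups did not overlap for 8 genes (Cdk1, Kif15, Ckap2, Psrc1, Racgap1, Diaph3, Kif23 and Prc1), where 2.78% of all tested genes had all Atg5-deficient libraries above all wild-type ones. The reverse held for none of the 50 and for 2.08% of all genes.

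**Figure D1:**
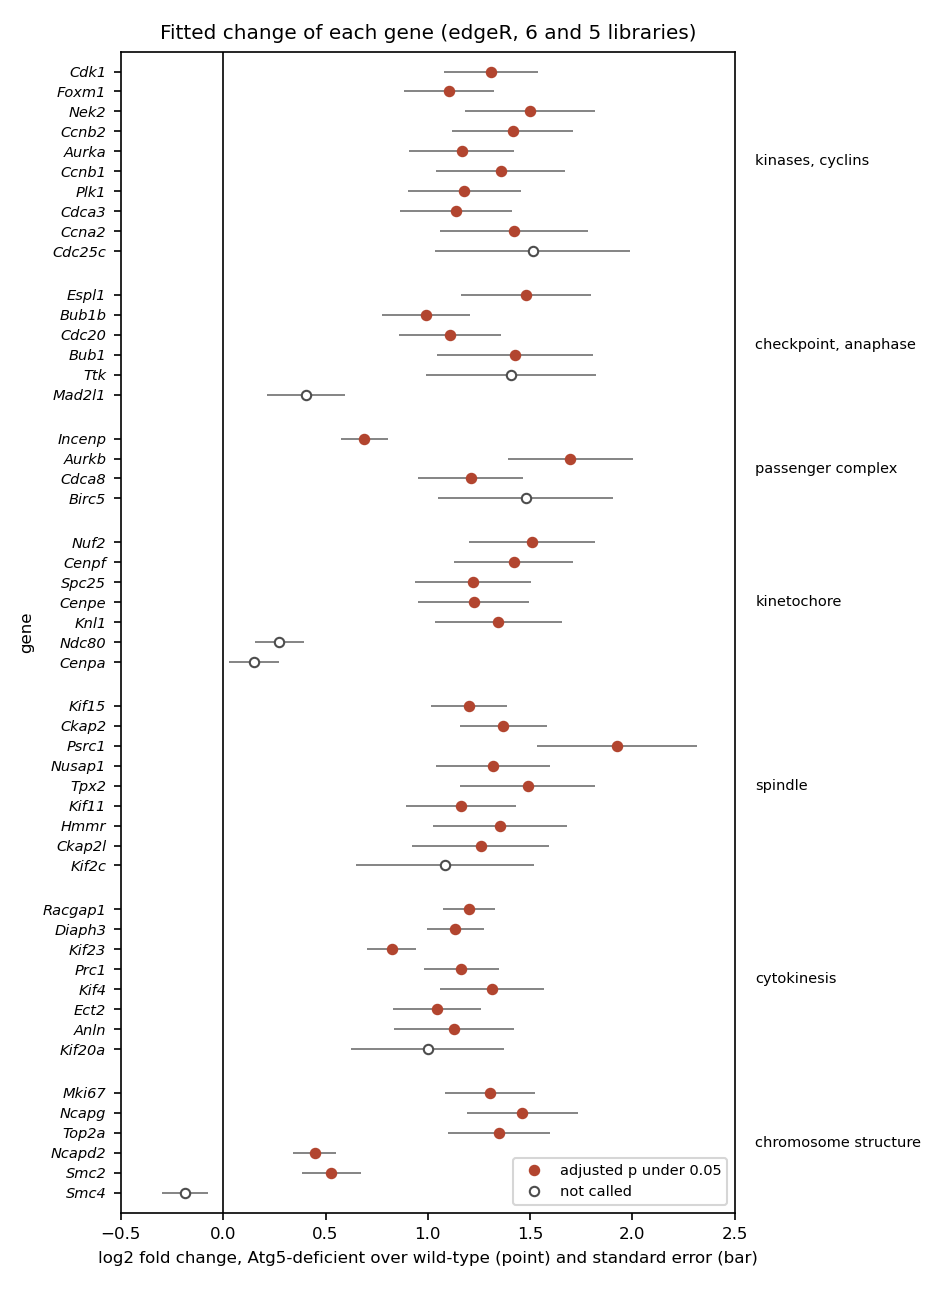
Log2 fold change of each of the 50 genes, Atg5-deficient over wild-type, with its standard error, ordered by role and, within a role, by p. Filled points are the 41 genes called higher and open points the 9 not called; 49 points lie right of 0, and Smc4 lies at -0.19.

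The number of genes called rested on which libraries were used. Atg5-deficient replicate 3 lay low, and without it 47 of the 50 genes were called higher (7.96% of all genes), all but Cenpa, Ndc80 and Smc4. Replicate 3 is singled out for its low values of these very genes, so calls without it are no independent support. Without another single library, 27 to 40 of the 50 were called, the lowest number without wild-type replicate 4, against 2.18% to 4.94% of all genes. In the 8 libraries with label numbers from FW75106 to FK75113, 5 Atg5-deficient and 3 wild-type, 6 were called (Cdk1, Diaph3, Kif15, Kif23, Prc1 and Racgap1; 0.462% of all genes were called higher there). The median log2 fold change in these 8 libraries was 1.28, and the labels do not say what the numbers stand for. Outside them stood 1 Atg5-deficient library (FK75264) and 2 wild-type ones: the median log2 ratio of FK75264 was 1.20 over FW75262, with 50 of 50 genes higher, and 1.39 over FW33335, with 48 of 50 higher (log2 of CPM plus 0.5, no test).

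The promoters of the 50 genes were also read for elements known from cell cycle genes. As the genes were chosen for their role in mitosis, the shares of these elements describe the list, not its change between the groups. Genes with peak expression in mitosis often carry a cell cycle genes homology region (CHR, TTTGAA), which binds the MuvB complex, placed near the start and downstream of CCAAT boxes, which bind the factor NF-Y. Genes of S phase more often carry sites for E2F factors (TTCCCGC). RefSeq windows of 300 bases (250 before to 50 after the start, GRCm38.p6) were found for 42 of the 50 genes, and each motif was searched on both strands. Of the 42 windows, 32 (76.2%) held a CHR, against 18.1% of 27025 promoters of all genes, and 28 (66.7%) held one within 50 bases of the start, against 4.92%. A CCAAT box was present in 33 (78.6%, against 37.9%), at least 2 of them in 22 (52.4%, against 12.2%), and both elements in 27 (64.3%, against 7.12%). Among 63 promoters of other mitosis genes, 49.2% held a CHR, 61.9% a CCAAT box and 36.5% at least 2. Among 40 promoters of replication and S phase genes, these shares were 12.5%, 62.5% and 37.5%. Frequent CCAAT boxes were thus not particular to the 50 genes. The E2F letters were found in 1 of 42 (2.38%, against 4.66% of all promoters and 16 of 40 promoters of replication and S phase genes). The variant TTTAAA was found in 9 windows (21.4%, against 13.2%). Motifs were counted separately, also where matches shared a base, and a match describes the window without showing that a factor binds there.

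The windows of 6 genes are shown, 5′ to 3′ on the strand of the gene: genes called higher that act at entry (Cdk1, Ccnb2), in cytokinesis (Racgap1, Prc1) and on chromosomes (Mki67), and Mad2l1, whose window held neither element and which was not called. Capitals mark TTTGAA and CCAAT on either strand (TTCAAA and ATTGG where reversed), and the last 50 bases lie after the RefSeq start.
Cdk1, chr10:69352863-69353162, minus strand: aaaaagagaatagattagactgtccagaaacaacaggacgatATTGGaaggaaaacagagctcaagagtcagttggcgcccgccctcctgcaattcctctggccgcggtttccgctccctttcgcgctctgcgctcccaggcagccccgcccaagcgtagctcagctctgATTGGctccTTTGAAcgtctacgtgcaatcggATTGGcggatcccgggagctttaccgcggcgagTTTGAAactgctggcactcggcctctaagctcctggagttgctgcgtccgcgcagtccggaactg
Ccnb2, chr9:70421505-70421804, minus strand: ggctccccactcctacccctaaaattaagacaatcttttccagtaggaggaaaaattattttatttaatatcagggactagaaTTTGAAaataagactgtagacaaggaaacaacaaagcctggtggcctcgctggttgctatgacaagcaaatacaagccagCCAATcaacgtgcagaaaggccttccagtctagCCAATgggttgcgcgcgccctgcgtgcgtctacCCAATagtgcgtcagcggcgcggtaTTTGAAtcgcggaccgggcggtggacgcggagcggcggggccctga
Racgap1, chr15:99651607-99651906, minus strand: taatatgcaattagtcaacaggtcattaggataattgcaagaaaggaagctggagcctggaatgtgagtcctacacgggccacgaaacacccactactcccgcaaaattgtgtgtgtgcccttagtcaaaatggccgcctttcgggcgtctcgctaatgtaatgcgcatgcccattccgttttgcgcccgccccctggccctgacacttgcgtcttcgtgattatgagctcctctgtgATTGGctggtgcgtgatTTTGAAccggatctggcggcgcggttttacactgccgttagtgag
Prc1, chr7:80294201-80294500, plus strand: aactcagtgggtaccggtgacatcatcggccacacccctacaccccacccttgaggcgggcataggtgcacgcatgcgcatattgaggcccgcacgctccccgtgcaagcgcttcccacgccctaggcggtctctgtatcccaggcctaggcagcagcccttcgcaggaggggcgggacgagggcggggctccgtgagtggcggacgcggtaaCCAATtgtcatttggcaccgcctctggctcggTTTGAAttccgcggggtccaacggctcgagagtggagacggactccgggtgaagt
Mki67, chr7:135716330-135716629, minus strand: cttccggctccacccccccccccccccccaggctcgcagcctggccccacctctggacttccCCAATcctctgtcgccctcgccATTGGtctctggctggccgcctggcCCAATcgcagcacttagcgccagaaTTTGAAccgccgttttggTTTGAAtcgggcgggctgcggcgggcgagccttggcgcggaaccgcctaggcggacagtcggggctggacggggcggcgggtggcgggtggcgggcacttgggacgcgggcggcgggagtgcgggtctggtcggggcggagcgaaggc
Mad2l1, chr6:66534971-66535270, plus strand: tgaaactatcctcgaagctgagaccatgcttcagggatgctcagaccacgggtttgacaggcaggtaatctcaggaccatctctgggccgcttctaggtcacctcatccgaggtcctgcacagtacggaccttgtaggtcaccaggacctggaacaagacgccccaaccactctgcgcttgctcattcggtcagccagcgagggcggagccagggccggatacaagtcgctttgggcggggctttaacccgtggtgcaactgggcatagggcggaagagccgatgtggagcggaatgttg
Cdk1, Ccnb2 and Mki67 held 2 CHR and 3 CCAAT matches each, and Racgap1 and Prc1 held 1 of each. In Racgap1 and Prc1 the CCAAT match lies some bases before the CHR, and the CHR lies close to the start. The Mad2l1 window ends before the GENCODE start of the gene, which lies 169 bases downstream of the RefSeq start; the GENCODE start lay within the window for 37 of the 42 genes, and outside it also for Kif2c, Cdca8, Cdca3 and Kif4. Neither element was found for Nuf2, Nusap1, Mad2l1 and Birc5, of which Nuf2 and Nusap1 were called higher and Mad2l1 and Birc5 were not. Among the genes called higher with a window, 28 of 36 (77.8%) held a CHR and 31 of 36 (86.1%) a CCAAT box. Of all 42 windows, called or not, 32 (76.2%) and 33 (78.6%) did.

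**Figure D2:**
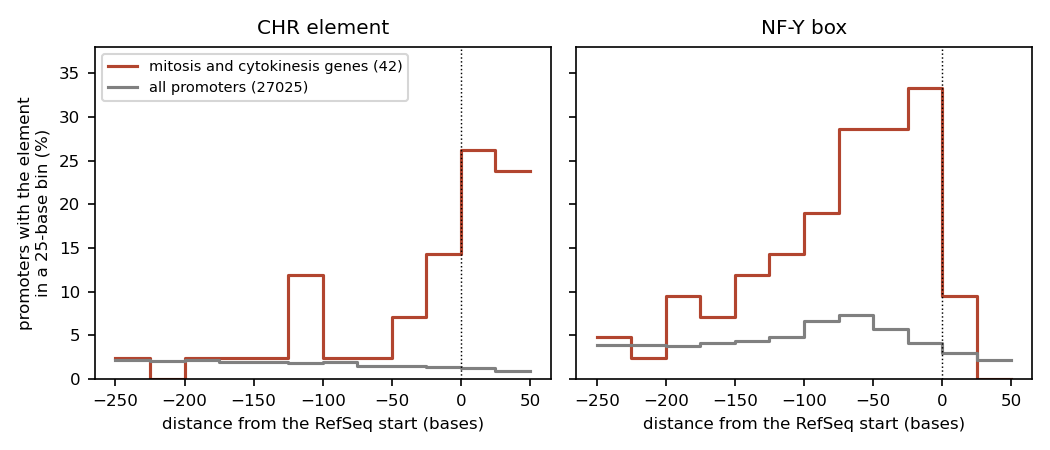
Share of promoters that hold the CHR element (left) or the NF-Y box (right) in each 25-base bin, by distance from the RefSeq start, for 42 mitosis and cytokinesis genes and for 27025 promoters of all genes. The CHR peaks just after the start, at 26.2% against 1.25%, and the NF-Y box just before it, at 33.3% against 4.16%.

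Among the kinases and cyclins that drive entry into mitosis, 9 of 10 genes were called higher, with a median log2 fold change of 1.33. Cdk1 (ENSMUSG00000019942, chromosome 10, 69335146 to 69352938, minus strand), the kinase that starts mitosis, had 4.57, 6.33 and 9.40 CPM in Atg5-deficient libraries (lowest, median and highest), and 2.56, 3.84, 2.31, 2.22 and 2.83 CPM in wild-type libraries. Every Atg5-deficient library lay above every wild-type one. The fit gave a log2 fold change of 1.31 (SE 0.23, adjusted p = 0.00684). The cyclins that bind this kinase rose by like amounts, Ccnb2 with a log2 fold change of 1.41 (adjusted p = 0.0151), Ccnb1 with 1.36 (0.0214) and Ccna2 with 1.42 (0.0371). So did Aurka, the kinase of the spindle poles (1.16), Plk1, a kinase that acts from entry to cytokinesis (1.18), Nek2, a centrosome kinase (1.5), Cdca3, which helps degrade the Cdk1 inhibitor Wee1 (1.14), and Foxm1, a transcription factor of late cell cycle genes (1.10). Cdc25c, a phosphatase that activates Cdk1, was not called: it had 0.377, 1.34 and 2.42 CPM in Atg5-deficient libraries (lowest, median, highest), and 0.470, 0.323, 0.407, 0.257 and 0.841 CPM in wild-type libraries. The ranges overlapped through Atg5-deficient replicate 3, the lowest. On the log2 scale the fitted change was 1.51 (SE 0.48, adjusted p = 0.0693), and at 389 reads in all it was the least counted of the 50.

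Of the 6 genes of the spindle checkpoint and of anaphase onset, 4 were called higher, with a median log2 fold change of 1.26. Espl1, the separase that cuts the cohesin between sister chromatids, had 3.84, 10.6 and 16.7 CPM in Atg5-deficient libraries (lowest, median, highest), and 3.06, 4.58, 2.56, 3.28 and 5.30 CPM in wild-type libraries. Only the lowest Atg5-deficient library, replicate 3, fell within the wild-type range. edgeR fitted a log2 fold change of 1.48 (SE 0.32, adjusted p = 0.0160). Cdc20, which activates the anaphase-promoting complex, rose by a log2 fold change of 1.11 (adjusted p = 0.0191), Bub1b by 0.99 (0.0172) and Bub1, a kinase of the checkpoint, by 1.43 (0.0388). Ttk, the kinase that starts checkpoint signalling, came to 1.41 without passing the test (adjusted p = 0.0550). Mad2l1, which holds Cdc20 inactive while the checkpoint is on, had 6.2, 12 and 15 CPM in Atg5-deficient libraries (lowest, median, highest), and 7.0, 10.1, 9.44, 7.96 and 9.14 CPM in wild-type libraries. Replicate 3 of the Atg5-deficient libraries lay below every wild-type library and the other 5 above them all. A log2 fold change of 0.40 was fitted (SE 0.19, adjusted p = 0.218). Of 11 fits that left out 1 library, only that without replicate 3 called it, and adjusted p ran from 0.0220 there to 0.409.

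The chromosomal passenger complex corrects wrong attachments at the centromere and later moves to the central spindle, and 3 of its 4 genes were called higher (median log2 fold change 1.34). Its kinase Aurkb averaged 7.37 ± 2.84 CPM over the 6 Atg5-deficient and 2.27 ± 0.465 CPM over the 5 wild-type libraries (mean ± SD), a log2 fold change of 1.70 (SE 0.30, edgeR adjusted p = 0.00786). Incenp, the scaffold of the complex, had 50.7, 71.0 and 82.0 CPM in Atg5-deficient libraries (lowest, median, highest), and 41.9, 50.9, 43.1, 40.5 and 41.3 CPM in wild-type libraries. The ranges met where Atg5-deficient replicate 3 fell just under wild-type replicate 2. This gave a log2 fold change of 0.69 (SE 0.11, adjusted p = 0.00528), the smallest p of the complex with its smallest change. Cdca8 (Borealin), which targets the complex to centromeres, rose by 1.21 (adjusted p = 0.0149). Birc5 (Survivin), the remaining subunit, had 2.17, 14.4 and 17.4 CPM in Atg5-deficient libraries (lowest, median, highest), and 3.42, 6.35, 2.58, 4.08 and 5.76 CPM in wild-type libraries. Replicate 3 lay below all wild-type libraries and the other 5 above all of them. The log2 fold change of Birc5 was 1.48 (SE 0.43, adjusted p = 0.0585). It was called in 1 of the 11 fits that left out a library, the one without replicate 3, and adjusted p ran from 0.000877 there to 0.129.

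At the centromere and kinetochore, where chromosomes meet spindle microtubules, 5 of 7 genes were called higher, with a median of 1.22. Nuf2, of the NDC80 complex that grips microtubules, had 2.30, 7.98 and 9.01 CPM in Atg5-deficient libraries (lowest, median, highest), and 2.33, 3.32, 1.99, 1.88 and 3.13 CPM in wild-type libraries. Replicate 3 alone fell within the wild-type range, and the other 5 of its group lay higher. The fit gave a log2 fold change of 1.51 (SE 0.31, adjusted p = 0.0120). The motor Cenpe rose by 1.22 (adjusted p = 0.0224), the large kinetochore protein Cenpf by 1.42 (0.0159), the scaffold Knl1 by 1.34 (0.0244) and Spc25, a further NDC80 subunit, by 1.22 (0.0218). Their partner Ndc80 stood apart from Nuf2 and Spc25: it averaged 17.8 ± 2.70 CPM over the 6 Atg5-deficient and 14.7 ± 1.09 CPM over the 5 wild-type libraries (mean ± SD), and its log2 fold change of 0.27 was not called (SE 0.12, edgeR adjusted p = 0.187). Cenpa, the histone that marks the centromere, had 28.2, 40.1 and 44.5 CPM in Atg5-deficient libraries (lowest, median, highest), and 39.0, 27.5, 37.7, 35.7 and 36.2 CPM in wild-type libraries. The groups overlapped over most of their range, and the highest Atg5-deficient library was replicate 3. The log2 fold change of Cenpa was 0.15 (SE 0.12, adjusted p = 0.501). Ndc80 and Cenpa were not called in any of the 11 fits that left out 1 library.

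Of the 9 spindle motors and microtubule binders, 8 were called higher (median log2 fold change 1.32), and 3 of them had groups that did not overlap. Kif15, a motor that helps keep the spindle poles apart, had 10.1, 17.9 and 20.0 CPM in Atg5-deficient libraries (lowest, median, highest), and 8.10, 8.84, 5.50, 6.27 and 8.51 CPM in wild-type libraries. All 6 Atg5-deficient libraries lay above all wild-type ones. On the log2 scale the fitted change was 1.20 (SE 0.19, adjusted p = 0.00421). Psrc1, which binds spindle microtubules, had the largest log2 fold change of the 50 at 1.92 (SE 0.39, adjusted p = 0.0120), with 3.00 ± 0.745 CPM over the 6 Atg5-deficient and 0.789 ± 0.437 CPM over the 5 wild-type libraries (mean ± SD). Kif11, the motor that pushes the poles apart, rose by 1.16 (adjusted p = 0.0261), Tpx2, which activates Aurora A, by 1.49 (0.0229), and Ckap2, a spindle protein, by 1.37 (0.00421). Nusap1, Hmmr and Ckap2l, which bind spindle microtubules, rose by 1.32, 1.35 and 1.26. Kif2c, which takes microtubules apart at their ends, had 0.881, 6.33 and 7.77 CPM in Atg5-deficient libraries (lowest, median, highest), and 3.42, 3.23, 1.11, 2.79 and 2.73 CPM in wild-type libraries. Again replicate 3 was below all wild-type libraries and the other 5 above them. The log2 fold change of Kif2c was 1.08 (SE 0.43, adjusted p = 0.148). Here too 1 of the 11 fits called it, the one without replicate 3, and adjusted p ran from 0.00686 there to 0.261.

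The genes of the central spindle and cytokinesis had the most cases without overlap, 4 of 8, and 7 of the 8 were called higher, with a median of 1.13. Racgap1 (ENSMUSG00000023015, chromosome 15, 99620496 to 99651656, minus strand), which with Kif23 forms the centralspindlin complex that bundles the central spindle, had 35.2, 52.9 and 58.8 CPM in Atg5-deficient libraries (lowest, median, highest), and 20.2, 23.9, 19.7, 25.2 and 21.1 CPM in wild-type libraries. The lowest Atg5-deficient library, replicate 3, lay above the highest wild-type one, replicate 4. edgeR fitted a log2 fold change of 1.20 (SE 0.13), and its adjusted p of 0.000715 was the smallest of the 50. Its partner Kif23 rose by 0.82 (SE 0.12, adjusted p = 0.00341), Diaph3, a formin that builds actin filaments, by 1.14 (SE 0.14, 0.00165), and Prc1, which crosslinks the microtubules of the central spindle, by 1.16 (SE 0.18, 0.00449). Ect2, which activates RhoA at the furrow, rose by 1.04 (adjusted p = 0.0134), Anln (anillin), a scaffold of the contractile ring, by 1.13 (0.0350), and the motor Kif4 by 1.31 (0.00996). Kif20a, a motor that carries the passenger complex to the central spindle, had 2.58, 10.5 and 14.6 CPM in Atg5-deficient libraries (lowest, median, highest), and 3.76, 7.84, 3.67, 3.85 and 6.55 CPM in wild-type libraries. Replicate 3 lay below all of the wild-type libraries and the other 5 above them. The log2 fold change of Kif20a was 1.0 (SE 0.38, adjusted p = 0.128). Only the fit without replicate 3 called it, 1 of 11, and adjusted p ran from 0.00802 there to 0.254.

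The genes of mitotic chromosome structure differed most among themselves: 5 of 6 were called higher, their median log2 fold change was 0.92, and the range ran from -0.19 to 1.46. Mki67 (ENSMUSG00000031004, chromosome 7, 135689784 to 135716361, minus strand), which coats mitotic chromosomes and is the usual marker of cycling cells, had 168, 397 and 462 CPM in Atg5-deficient libraries (lowest, median, highest), and 137, 165, 117, 137 and 183 CPM in wild-type libraries. Replicate 3, at 168 CPM, fell within the wild-type range, and the other Atg5-deficient libraries had 332 CPM or more. This gave a log2 fold change of 1.30 (SE 0.22, adjusted p = 0.00792). Top2a, the topoisomerase that untangles sister chromatids, rose by 1.35 (SE 0.25, adjusted p = 0.0110), with 119 ± 38.2 CPM over the 6 Atg5-deficient and 46.6 ± 7.50 CPM over the 5 wild-type libraries (mean ± SD). The subunits of condensin, the ring that compacts chromosomes, did not move alike: Ncapg rose by 1.46 (adjusted p = 0.00882), Smc2 by 0.53 (0.0414) and Ncapd2 by 0.45 (0.0214). Smc4, which pairs with Smc2 in the ring, had 341, 412 and 514 CPM in Atg5-deficient libraries (lowest, median, highest), and 567, 449, 447, 436 and 500 CPM in wild-type libraries. The groups overlapped, and the highest of all was wild-type replicate 1. The log2 fold change of Smc4 was -0.19 (SE 0.11, adjusted p = 0.336).

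Several counts rest on reads that neighbouring genes may share. Ncapd2 had 39205 reads in all. The small RNA Scarna10, which lies in it on the same strand, had 14946, equal to 38.1% of that count, with a log2 fold change of 0.04. The sources do not say whether reads on both were counted for both. With the Scarna10 count subtracted, as if all its reads were shared, the log2 fold change of Ncapd2 was 0.71 (SE 0.17, adjusted p = 0.0260, edgeR). Exons on the opposite strand overlap those of Ccna2 (Exosc9, 510 bases), Cdc20 (Elovl1, 53), Kif20a (Cdc23, 1271), Kif4 (Pdzd11, 832), Prc1 (Rccd1, 911), Ncapg (Lcorl, 944), Nusap1 (Oip5, 172) and Cdca8 (9930104L06Rik, 232). The sources used here do not give the strand setting of the counting, so reads of such pairs cannot be told apart. None of these partners passed the test (log2 fold changes of -0.22 to 0.20, and 1.0 for Oip5).

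Levels can be compared between genes only per length of exon. The median of the 50 was 2.69 CPM per kilobase in Atg5-deficient and 1.17 in wild-type libraries. Smc4 had by far the highest level, 80.9 CPM per kilobase in Atg5-deficient and 92.1 in wild-type libraries, ahead of Mki67 with 36.2 in Atg5-deficient and 14.7 in wild-type libraries. Genes with higher wild-type levels tended to have smaller fold changes (Spearman's rho -0.58 over the 50 genes, a description, since all share the same libraries and the wild-type level enters both measures). The 10 highest per kilobase in wild-type libraries had a median log2 fold change of 0.93, and the other 40 of 1.28.

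Atg5-deficient replicate 3 (labelled FK75111) stood apart from its group. In Atg5-deficient replicates 1, 2, 4, 5 and 6, 48, 49, 48, 48 and 48 of the 50 genes lay above every wild-type library, where 24.4%, 26.2%, 25.2%, 27.5% and 22.6% of all tested genes did. In replicate 3, 10 of 50 did, where 26% of all genes did, while 35 lay within the wild-type range and 5 below it (Mad2l1, Birc5, Kif2c, Kif20a and Smc4). The 10 were the 8 genes whose groups did not overlap, with Ndc80 and Cenpa. Replicate 3 was the lowest Atg5-deficient library for 45 of the 50 genes. For 47 genes the other 5 Atg5-deficient libraries lay above all wild-type ones, the exceptions being Ndc80, Cenpa and Smc4. Replicate 3 also had the lowest total count (30699408), the lowest weight in limma-voom (0.393, where the other Atg5-deficient libraries had 0.549 to 1.75). Its CD4 T cell markers summed to 3214 CPM, the lowest of the 11 libraries. The other Atg5-deficient libraries had 3759 CPM or more and the wild-type ones 3226 CPM or more. Its NK cell markers were 29.5 CPM (of which Eomes gave 25.67). Replicate 4, high in the 50 genes, had 85.7 CPM of them, and wild-type libraries at most 15.2 CPM. The summed macrophage markers of replicate 3 were 20.8 CPM, above the other Atg5-deficient (5.44 to 12.6 CPM) and all wild-type libraries (9.78 to 14.9 CPM). Cd68 alone gave 16.0 CPM of that sum in replicate 3, and no other marker in it gave more than 1.89 CPM. Its B cell markers were 28.6 CPM, but replicates 5 and 6, high in the 50 genes, had 23.1 and 28.4 CPM, and wild-type libraries at most 17.5 CPM. Its erythroid markers were 63.3 CPM (of which Tfrc gave 54.85), but replicate 2 had 60.3 CPM, and wild-type libraries at most 43.0 CPM. Its hepatocyte markers summed to 772 CPM, and those of replicates 1 and 2, high in the 50 genes, to 977 and 1041 CPM. The part of these properties in the result was not tested. With the summed level of non-T-cell markers as a covariate, 40 genes were called higher (3.91% of all genes) and the median log2 fold change was 1.34. Hepatocyte markers reached 1041 CPM in this sum, against at most 20.8 CPM for macrophages and 28.6 CPM for B cells. Plasma cell markers (mostly Ighm) reached 276 CPM and liver endothelial markers (mostly Pecam1) 223 CPM. Both of these exceeded the hepatocyte markers in Atg5-deficient replicates 4 and 5 and wild-type replicates 1 and 5. The fit therefore could not adjust for the small sums of macrophages and B cells.

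**Figure D3:**
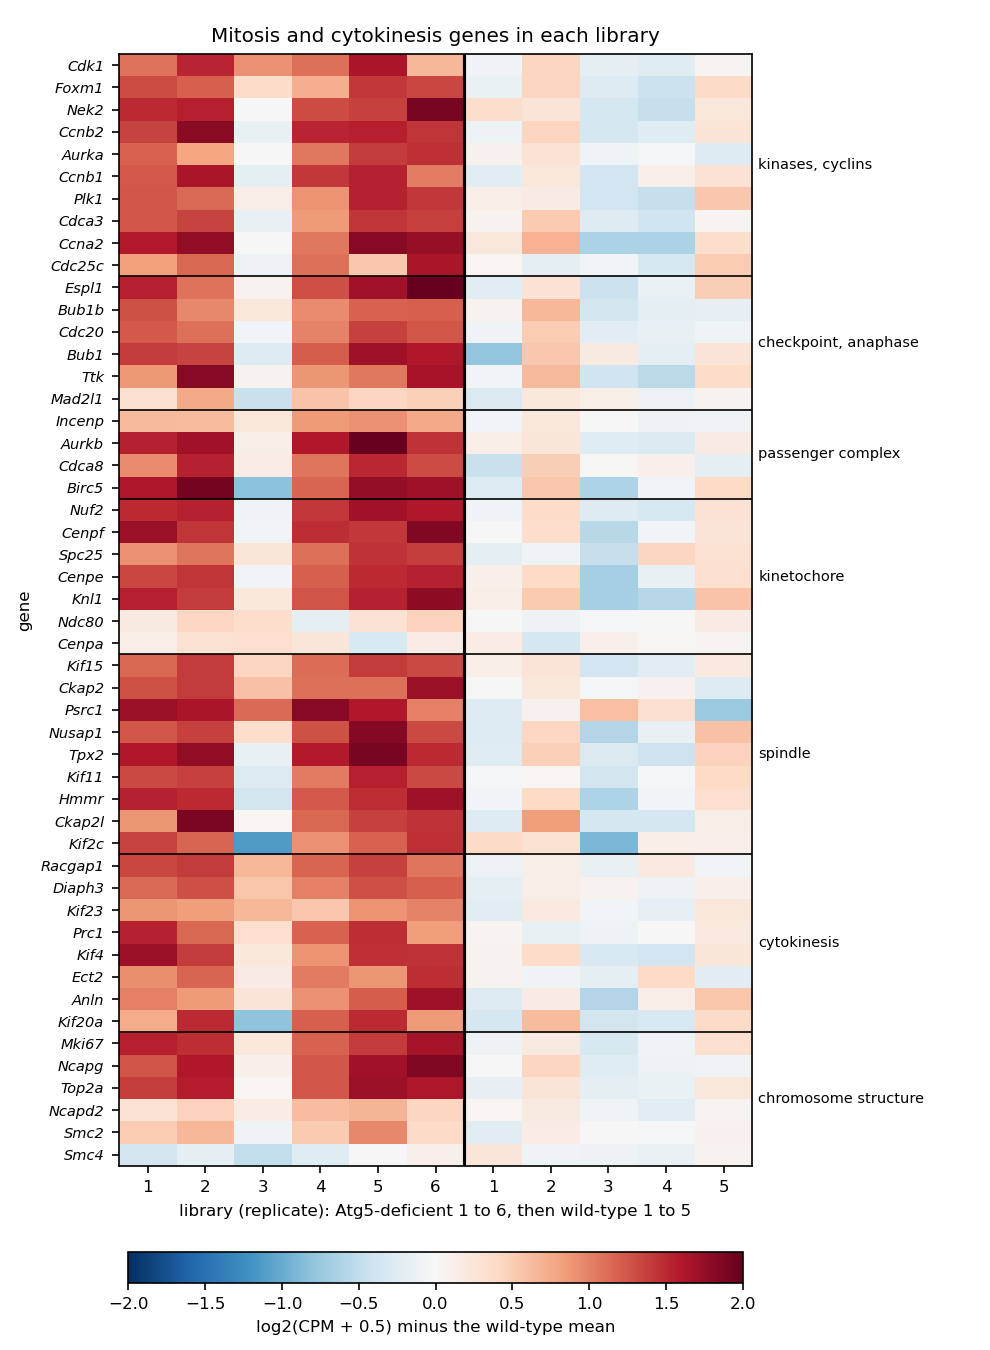
Level of each of the 50 genes in each library as log2(CPM + 0.5) minus the mean of the wild-type libraries, with Atg5-deficient libraries 1 to 6 left of wild-type libraries 1 to 5. Atg5-deficient library 3 is pale, with 10 of 50 genes above the wild-type range, where the other 5 have 48 or 49.

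**Figure D4:**
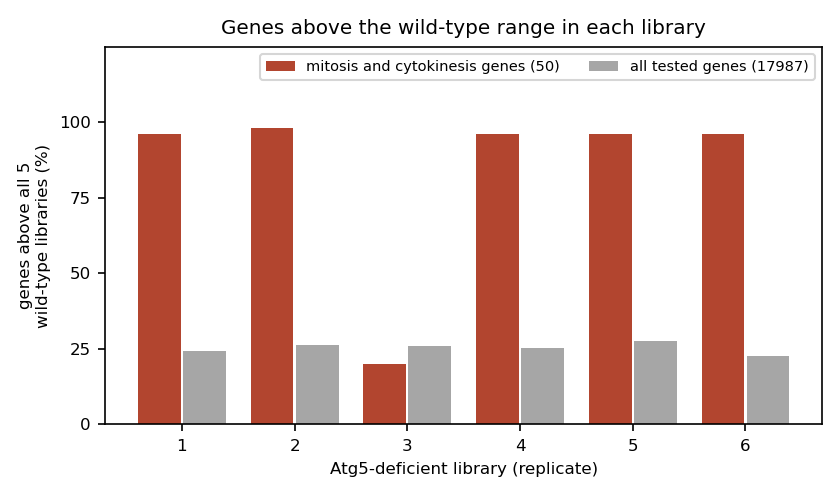
Share of genes that lie above all 5 wild-type libraries in each Atg5-deficient library, for the 50 mitosis and cytokinesis genes and for all 17987 tested genes. The share of the 50 is 96% to 98% in 5 libraries and 20% in replicate 3, while that of all genes is 22.6% to 27.5%.

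The mean log2 CPM of the 50 genes was 3.98, 4.10, 2.82, 3.87, 4.15 and 4.13 in Atg5-deficient replicates 1 to 6, and 2.67, 3.05, 2.45, 2.58 and 2.93 in wild-type replicates 1 to 5. It averaged 3.84 ± 0.51 over the 6 Atg5-deficient and 2.74 ± 0.25 over the 5 wild-type libraries (mean ± SD), and replicate 3 alone fell within the wild-type range. Among wild-type libraries, replicate 2 was the highest for 30 of the 50 genes and replicate 5 for 12.

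Medians were lower in lists of other steps of the cell cycle, and the differences between lists were not tested. Of 51 genes of DNA replication and S phase, 15 were called higher and 0 lower (4.43% and 2.41% of all genes). The median log2 fold change of this list was 0.48. The mean log2 CPM of this list averaged 4.31 ± 0.26 over the 6 Atg5-deficient and 3.84 ± 0.17 over the 5 wild-type libraries (mean ± SD). The mean of the 50 mitosis genes minus that of the S phase list was -0.26, -0.35, -1.01, -0.46, -0.40 and -0.31 in Atg5-deficient replicates 1 to 6, and -1.04, -1.05, -1.25, -1.21 and -0.97 in wild-type replicates 1 to 5. This difference was smaller in size in 5 of 6 Atg5-deficient libraries than in any wild-type library, and replicate 3 lay within the wild-type range. Lig1, which joins DNA fragments at the fork, rose by a log2 fold change of 0.69 (SE 0.11, adjusted p = 0.00482), Tk1, thymidine kinase, by 1.03 (SE 0.18, 0.00663) and Dtl, which helps degrade the licensing factor Cdt1, by 0.67 (SE 0.14, 0.0134).

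Of 77 further genes of mitosis outside the 50, 30 were called higher and 0 lower (4.43% and 2.41% of all genes), with a median of 0.84. In 13 the groups did not overlap, with Atg5-deficient libraries higher, as in 2.78% of all genes. Cit, the citron kinase of the midbody, had 18.1, 26.2 and 27.2 CPM in Atg5-deficient libraries (lowest, median, highest), and 8.65, 15.8, 7.72, 7.04 and 11.9 CPM in wild-type libraries. The groups did not overlap, and replicate 3 was the lowest of its group. The fit gave a log2 fold change of 1.29 (SE 0.20, adjusted p = 0.00421). Lmnb1, lamin B1 of the nuclear envelope, rose by 0.81 (adjusted p = 0.00421) and Hmgb2, a chromatin protein, by 0.78 (0.00449).

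The machinery on which the end of mitosis depends makes up small lists. As edgeR called 4.43% of all genes higher and 2.41% lower, lists of this size without a call are near that share. Of 17 genes of the anaphase-promoting complex and its partners, 0 were called by edgeR, with a median log2 fold change of 0.04. At an unadjusted p under 0.05, 3 were higher and 1 lower, a share near the 12.7% and 10.6% of all genes. DESeq2 called 2 higher (7.75% of all genes), and limma-voom 3 higher (10.8%) and 1 lower (1441 of 17987 genes). Ube2c, the ubiquitin-conjugating enzyme of the complex, was nearest to the threshold with 1.39 (SE 0.39, adjusted p = 0.0515), and Anapc2, its cullin subunit, had 0.24 (adjusted p = 0.0523). Of 14 genes of the abscission machinery, which cuts the last bridge between daughter cells, 0 were called by edgeR, with a median of 0.15. A positive log2 fold change was fitted for 13 of the 14, against 49.7% of all genes. At an unadjusted p under 0.05, 5 were higher and 0 lower, where 12.7% and 10.6% of all genes were. DESeq2 called 1 of them higher (7.75% of all genes) and limma-voom 4 (10.8%). Of the MuvB core and B-MYB, the complex that binds the CHR, 1 of 5 genes was called: Mybl2 (B-MYB), itself made in cycling cells, rose by 1.18 (SE 0.23, adjusted p = 0.00989), and the median of the 5 was 0.07.

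At the entry into the cycle, 2 of 10 genes of G1 were called higher and 0 lower (4.43% and 2.41% of all genes). The median log2 fold change of the 10 was 0.06. Cdk6, a G1 kinase, had 115, 138 and 165 CPM in Atg5-deficient libraries (lowest, median, highest), and 77.4, 62.5, 85.3, 86.4 and 88.9 CPM in wild-type libraries. The groups did not overlap, and Atg5-deficient replicate 3, at 147 CPM, was not low. On the log2 scale the fitted change was 0.79 (SE 0.11, adjusted p = 0.00250), and E2f3, an activator of S phase genes, rose by 0.75 (SE 0.18, 0.0277). Of 19 CDK inhibitors, pocket proteins and quiescence factors, 5 were called higher and 0 lower, against the same shares of all genes (median 0.03). The 5 include inhibitors of the G1 kinases: Cdkn2c (p18) rose by 1.25 (SE 0.27, adjusted p = 0.0149) and Cdkn1a (p21) by 1.54 (SE 0.33, 0.0172). Cdkn2a, also among the 5, reached the cutoff of the low-count filter (0.270 CPM) in 5 Atg5-deficient and 0 wild-type libraries, so it was tested only through the group where it is high, and its call is no support. Cdkn1a had 6.81, 14.8 and 23.4 CPM in Atg5-deficient libraries (lowest, median, highest), and 3.61, 2.87, 7.88, 6.59 and 3.90 CPM in wild-type libraries. Replicate 3, low in the mitosis genes, was the highest library for Cdkn1a. Without this library the log2 fold change of Cdkn1a was 1.35, the smallest of the 11 fits that left out 1. That of Cdkn2c was 1.40, the largest, so the inhibitors did not move alike in it. Whether they bear on the low mitosis genes was not tested.

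**Figure D5:**
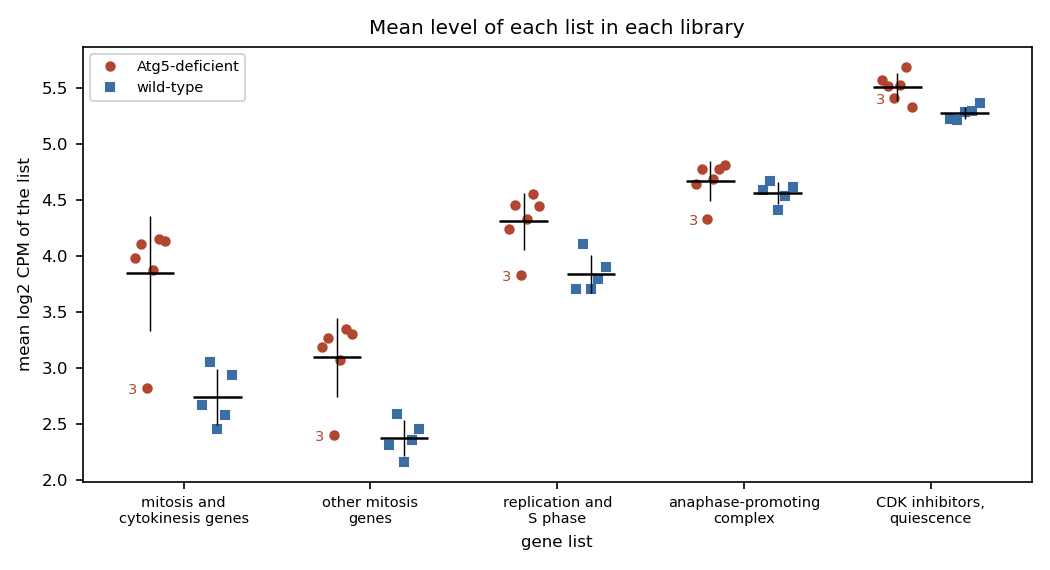
Mean log2 CPM of 5 gene lists in each library, Atg5-deficient libraries (circles) left of wild-type libraries (squares), with the mean (line) and SD (bar) of each group and replicate 3 of the Atg5-deficient libraries marked. The means of the 50 genes averaged 3.84 against 2.74, those of replication and S phase 4.31 against 3.84, and replicate 3 is the lowest Atg5-deficient library in each list but that of CDK inhibitors and quiescence factors.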

How the data were processed

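RNA of mouse liver CD4 T cells was sequenced in 6 Atg5-deficient and 5 wild-type libraries, grouped by the genotype in the labels. The authors deposited 1 table of raw counts of reads per Ensembl gene. Per the submitters' processing notes, STAR and featureCounts were used with the GRCm38 build. The sources used here do not give versions, annotation release, strand setting or how multimapping and duplicate reads were treated. The table had 0 columns of other samples. Of 56748 IDs, 52125 (91.9%) matched GENCODE M21, with 89.3% to 96.5% of each library's reads.

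From the counts, low-count genes were removed with filterByExpr (10 counts, 15 in total), libraries were scaled by TMM, and genes were tested with the robust quasi-likelihood F test of edgeR, with p-values adjusted by Benjamini-Hochberg over 17987 genes and a threshold of 0.05, with genotype as the only term. Standard errors (SE) were taken as the size of the log2 fold change divided by the square root of F. The common biological coefficient of variation was 0.341. CPM of genes is TMM-scaled, summed markers use total counts, and list means use log2 CPM with a prior count of 2. edgeR 4.0.16, DESeq2 1.42.0 and limma 3.58.1 were run in R 4.3.3. Depth was 30699408 to 47564440 counts, and floors of 3 counts cover counting error only. The members, their roles and the other lists were chosen with earlier results of these data known, so lists are described by counts and medians without a test.

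For Mki67 and, in each role, the members with the smallest and the largest p, the text gives the lowest, median and highest Atg5-deficient value and each wild-type value; of each of the 7 other lists, up to 3 genes with the smallest p may be named, and those with the largest p were left out. Library values of Cit, Cdk6 and Cdkn1a, and the mention of other members, were chosen after their values were seen. Lin54 of the MuvB list did not match the annotation.

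The test was checked on simulated counts of this comparison: over 17546 genes it recovered 14.9% of 67 genes changed 1.5-fold, 47.8% of 67 changed 2-fold and 66.7% of 66 changed 4-fold, with 4 false calls among 90. Alternatives tried were other scalings (relative log expression, upper quartile), other tools (DESeq2, and limma-voom with quality weights), no low-count filter and a strict one (1 CPM in at least 5 libraries), a covariate of non-T-cell markers, the 8 libraries from FW75106 to FK75113 alone, and fits without each library. Added after seeing the data were the removal of wild-type replicates 2 and 3 and the subtraction of Scarna10 reads from Ncapd2. Promoter windows were taken from RefSeq (GRCm38.p6), the first window of each gene.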

Additional observations from a re-analysis of the deposited data

Results flagged for a closer look

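Of 178 groups of libraries examined for a single value far from the rest of its group (Dixon's test at 95%), 25 held one, where chance flags about 1 in 20. Of these, 22 concern Atg5-deficient replicate 3, low in each case. Among single genes it had 4.40 CPM of Ccnb2 (13.4 to 18.5 CPM in the other 5 Atg5-deficient libraries), 3.71 of Cdc20 (8.16 to 10.8), 13.8 of Cenpe (33.6 to 42.6), 11.6 of Cenpf (32.8 to 44.5), 2.30 of Nuf2 (7.42 to 9.01) and 10.1 of Kif15 (16.6 to 20). It had 0.881 CPM of Kif2c (5.19 to 7.77), 8.40 of Tpx2 (27.1 to 36.2), 3.55 of Hmmr (11.8 to 16.4) and 18.1 of Cit (25.6 to 27.2).

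The same library had a low mean log2 CPM over the 50 genes (2.82) and over each of their roles: kinases and cyclins (1.75), checkpoint and anaphase onset (1.78), passenger complex (2.6), centromere and kinetochore (3.18), spindle (2.18), cytokinesis (3.18) and chromosome structure (5.85). It was low over the further mitosis genes (2.40), G1 genes (4.59, where the other 5 had 4.73 to 4.78) and the anaphase-promoting complex (4.33), and the mean of the 50 genes minus that of S phase genes was -1.01. These lists share libraries and genes, so the flags are not independent.

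The remaining values were high ones. Wild-type replicate 2 had 5.74 CPM of Cdc20 (3.26 to 3.66 in the other 4 wild-type libraries) and 50.9 of Incenp (40.5 to 43.1), and Atg5-deficient replicate 6 had 15.3 of Mybl2 (7.58 to 9.87).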

How the results depend on the processing

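Under each alternative run, 49 of the tested members (48 of 49 with the strict filter) had a positive log2 fold change, and their median lay between 1.15 and 1.36. The number called was less stable. Over all genes, 1231 were called, against 2333 by DESeq2, 3382 by limma-voom, 176 in the 8 libraries from FW75106 to FK75113, 722 without wild-type replicates 2 and 3, and 642 to 2143 with 1 library left out (2143 without Atg5-deficient replicate 3; 715, 642 and 702 without Atg5-deficient replicates 1, 2 and 4; 673, 710 and 651 without wild-type replicates 1, 4 and 5). Of the 50 members, 41 were called higher, where 4.43% of all genes were. The number was 6 in the 8 libraries from FW75106 to FK75113 (0.462%) and 25 without wild-type replicates 2 and 3 (2.55%). With 1 library left out it ran from 27 (without wild-type replicate 4, 2.31%) to 47 (without Atg5-deficient replicate 3, 7.96%). The cause was not tested, though fewer libraries enter the last 3 kinds of fit. In all 11 fits that left out 1 library, 25 members were called, and 8 (Cdca3, Ccna2, Bub1, Kif11, Hmmr, Ckap2l, Anln and Smc2) passed in fewer than 6. Of the log2 fold changes of named genes under the alternatives, 1329 kept direction and side of the threshold, 159 lost the call, 38 gained it and 0 changed sign. No paired analysis was possible because the labels give no replicate numbers. The 50 genes held 33893 to 82335 reads in a library, and of simulated 1.5-fold changes 14.9% were recovered.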
